A study of Oryctolagus cuniculus with 134 samples.

Results

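The aortic valve of rabbits fed a lard-enriched diet (Lard) was compared with that of rabbits fed a cholesterol-enriched diet (CHT), by RNA sequencing of whole dissected valves. The libraries were taken by their tissue and treatment labels, which gave 13 of the 134 libraries in the series, 7 for Lard and 6 for CHT, each from a different rabbit. All animals were male New Zealand White rabbits that entered the protocol at 12 weeks of age and were dissected after 16 weeks. The Lard diet held 5% lard and the CHT diet 0.3% cholesterol, and both groups drank vitamin D2 at 25000 U per day for each 2.5 kg of body weight during the first 15 days, so that the vitamin is shared by both sides of the comparison. Aortic valves from 7 rabbits on plain chow without vitamin D2 (Ctrl) are given beside them, so that a difference of either diet from Ctrl also holds the vitamin, and 7 valves from cholesterol-fed rabbits with cardiac irradiation (IR/CHT) entered the statistical model without being described.

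The aortic valve leaflet is a thin connective tissue made by valve interstitial cells and covered by endothelium, and in disease it takes up lipid, attracts macrophages and may calcify. Cells sense sterol through 2 opposed systems. When sterol in the cell is low, the SREBP2 transcription factor switches on the enzymes of cholesterol synthesis. When oxidized sterols are abundant, the LXR nuclear receptors switch on cholesterol efflux through ABCA1. Macrophages that store engulfed cholesterol as droplets are called foam cells.

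Between 14926657 and 39026994 counts fell on genes in the CHT libraries (median 19533768.5) and between 15020983 and 50577676 in the Lard libraries (median 19830531). The counts were deposited in 2 tables named plate 1 and plate 2, and what a plate stands for is not given in the sources used here. All 6 CHT libraries were in plate 1, whereas 3 Lard libraries were in plate 1 and 4 in plate 2, so that the comparison of the diets was repeated with plate 1 alone. The summed level of 9 valve interstitial markers lay between 20202 and 36344 counts-per-million (CPM, after scaling of library sizes) over Lard and CHT. This sum was not compared with another tissue. The 7 cardiomyocyte markers summed to 16.0 to 243.2 CPM on Lard and 9.38 to 353 CPM on CHT, against 165 to 12591 CPM in Ctrl. The 12 macrophage markers summed to 194.1, 306 and 824 CPM on Lard (lowest, median and highest library) and to 907, 1144 and 1309 CPM on CHT, with no overlap, while Ctrl ranged from 254 to 719 CPM. The highest Lard value belonged to library L232, which was also the deepest. That library was the highest of the 7 Lard libraries for 73 of the 128 list genes that were lower on Lard. In whole tissue, fewer cells of a type and less RNA per cell cannot be told apart. The macrophage marker level was lower on Lard, as were called genes of many lists below, and its part in those results was not tested.

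**Figure D1:**
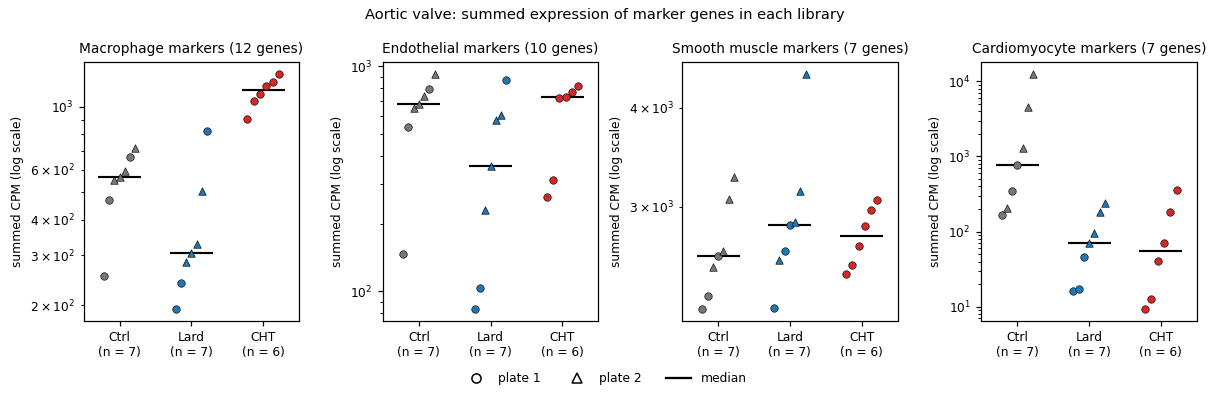
Summed expression of 4 sets of cell type markers in the aortic valve. The vertical axes give summed CPM on a log scale, each point is 1 library (circles for plate 1, triangles for plate 2), and the bars are medians of the 7 Ctrl, 7 Lard and 6 CHT libraries. Macrophage markers did not overlap between Lard (up to 824 CPM) and CHT (from 907 CPM), whereas endothelial, smooth muscle and cardiomyocyte markers overlapped.

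Of 15408 genes tested, 1224 (7.94%) differed between the diets at an adjusted p under 0.05 and a fold change over 1.5, and these genes are referred to as called. The difference was mostly in one direction: 1103 genes (7.16%) were lower and 121 (0.785%) higher on Lard than on CHT. With the plate 1 libraries alone, 609 of 15522 genes (3.92%) were called (3.65% lower and 0.277% higher), and 570 of them were among the 1224. The CPM range of the 7 Lard libraries lay wholly below that of the 6 CHT libraries in 704 genes (4.57%) and wholly above it in 80 (0.519%). The counts of each list below are to be read beside these shares of all genes. In the same model, Lard differed from Ctrl in 36 genes (0.234%) and CHT from Ctrl in 1833 (11.9%), or in 0 and 826 genes with plate 1 alone. These 2 comparisons share libraries with the first and their values are only set beside it.

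The genes of cholesterol synthesis and uptake were higher on Lard. Of 18 tested genes of that list, 10 were called higher and 1 lower, with a median log2 fold change of 1.13, against 0.04 over all genes. SQLE (ENSOCUG00000015771), the squalene epoxidase of the pathway, was at 19.9, 32.0 and 35.3 CPM on Lard (lowest, median, highest) and at 3.70, 8.80 and 12.6 CPM on CHT. Every Lard valve thus exceeded every CHT valve, a 3.58-fold difference of means and a log2 fold change of 1.84 ± 0.28 (SE, adjusted p = 3.31e-05). The Ctrl valves ranged from 12.5 to 48.3 CPM and reached into both groups. CYP51A1 (ENSOCUG00000004549), which removes a methyl group from lanosterol, had 41.2, 52.9 and 64.0 CPM on Lard against 13.7, 20.1 and 27.5 CPM on CHT (log2 fold change 1.4 ± 0.22, adjusted p = 4.09e-05). CYP51A1 did not overlap between the diets either.

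HMGCS1 (ENSOCUG00000003569) makes the HMG-CoA that feeds the pathway and had 31.3, 48.7 and 58.0 CPM on Lard against 7.79, 16.3 and 26.7 CPM on CHT (log2 fold change 1.49 ± 0.34, adjusted p = 0.00346). INSIG1 (ENSOCUG00000013795), a target of SREBP2 that holds the factor back in the endoplasmic reticulum, had 15.7, 17.6 and 27.1 CPM against 4.62, 6.36 and 10.6 CPM (1.45 ± 0.26, adjusted p = 0.000241). Both of these genes were higher in every Lard than in every CHT library. Against Ctrl, the list as a whole had a median log2 fold change of 0.01 on Lard, with 0 of 18 genes called by edgeR, and of -1.25 on CHT, with 15 called. The exception in the list was STARD4, a carrier of free cholesterol between membranes, which was lower on Lard (2.46, 2.85 and 6.37 CPM, against 7.68, 11.3 and 16.3 CPM on CHT, log2 fold change -1.53 ± 0.27).

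Of the 6 most clearly higher genes with a symbol, 1 of those described here was EPHX1 (ENSOCUG00000011934), an epoxide hydrolase that handles xenobiotics and lies outside the sterol list. It had 97.9, 115 and 165.6 CPM on Lard and 52.2, 66.7 and 88.2 CPM on CHT, with a log2 fold change of 0.93 ± 0.17 (adjusted p = 0.000255). SQLE, CYP51A1 and INSIG1 were also among those 6.

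**Figure D2:**
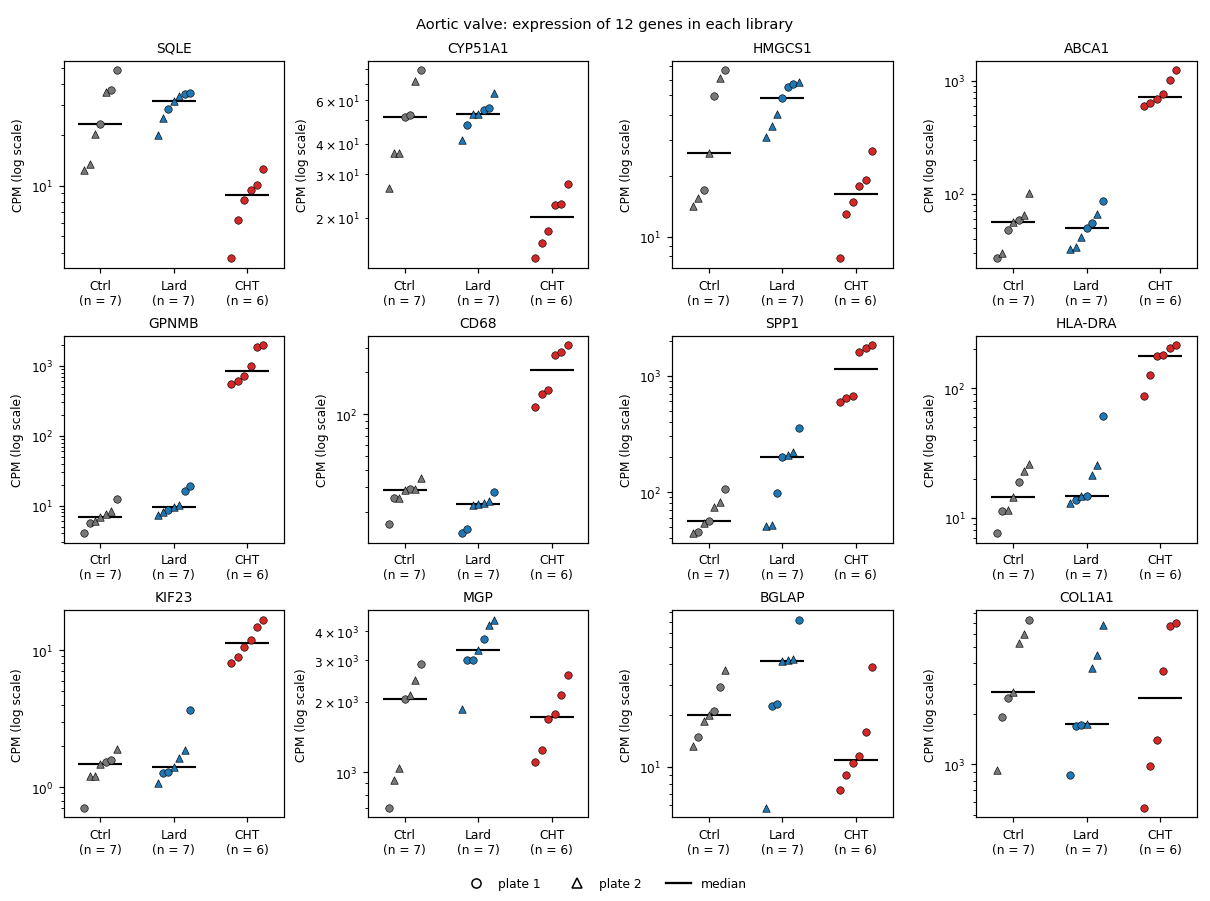
Expression of 12 genes in each aortic valve library. The vertical axes give CPM on a log scale, points are libraries (circles for plate 1, triangles for plate 2) and bars are medians of the 7 Ctrl, 7 Lard and 6 CHT libraries. SQLE, CYP51A1 and HMGCS1 were higher in every Lard than in every CHT library, ABCA1, GPNMB, CD68, SPP1, HLA-DRA and KIF23 lower in every one, and MGP, BGLAP and COL1A1 overlapped.

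Genes of sterol efflux went the other way. Of 8 tested targets of LXR, 6 were called lower and 0 higher on Lard (median log2 fold change -2.04). ABCA1 (ENSOCUG00000009279), which pumps cholesterol onto apolipoprotein A-I, had 32.2, 49.96 and 85.5 CPM on Lard and 598, 727 and 1242 CPM on CHT. The mean was 15.9-fold lower on Lard (log2 fold change -3.99 ± 0.29, adjusted p = 3.49e-10) and the groups lay far apart, while Ctrl, at 26.6 to 101 CPM, overlapped with Lard. NR1H3, which encodes LXR alpha itself, had 4.28, 5.28 and 11.8 CPM against 17.4, 27.3 and 38.5 CPM (-2.17 ± 0.28). PLTP, the phospholipid transfer protein, had 46.7, 85.8 and 142 CPM against 148, 267.1 and 649 CPM (-1.92 ± 0.32), so that the highest Lard and the lowest CHT library nearly met.

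The uptake, hydrolysis and storage of cholesterol were described by 15 genes, of which 8 were called lower and 0 higher on Lard (median log2 fold change -0.62). The scavenger receptor gene MSR1 had 3.80, 4.40 and 12.6 CPM on Lard against 22.6, 40.4 and 57.6 CPM on CHT (-2.77 ± 0.31). LIPA, the lysosomal lipase that frees cholesterol from its esters, had 19.2, 27.8 and 42.2 CPM against 109, 143 and 238.8 CPM (-2.57 ± 0.30). NPC2, which hands the freed cholesterol on, had 15.7, 19.7 and 23.3 CPM against 35.4, 49.2 and 74.4 CPM (-1.39 ± 0.17). None of the 3 overlapped between the diets. With plate 1 alone, 5 of the 15 genes were called.

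Genes known from foam cells included some of the largest differences. Of 9 tested, 7 were called lower and 0 higher on Lard, with a median log2 fold change of -2.30, and in all 7 the Lard range lay below the CHT range. Over all genes, the Lard range lay below the CHT range in 4.57%. GPNMB (ENSOCUG00000026334), a membrane glycoprotein of lipid-laden macrophages, had 7.35, 9.72 and 19.1 CPM on Lard and 552.6, 853 and 1991 CPM on CHT. Its mean was 98.3-fold lower on Lard, with a log2 fold change of -6.62 ± 0.41 (adjusted p = 3.73e-11). The elastase gene MMP12 had 0, 0.251 and 6.74 CPM on Lard and 87.8, 230 and 583 CPM on CHT (-7.59 ± 0.87), and the 6.74 CPM came from L232. ATP6V0D2, a subunit of the proton pump of lysosomes and osteoclasts, had 0, 0.382 and 1.27 CPM against 8.65, 18.3 and 94.5 CPM (-6.23 ± 0.74). SPP1 (ENSOCUG00000022536), which encodes osteopontin, a phosphoprotein of macrophages and of mineralizing tissue, had 51.0, 198.5 and 355 CPM on Lard, 589, 1135 and 1827 CPM on CHT and 44.4, 56.4 and 106 CPM in Ctrl. It was 6.96-fold lower on Lard than on CHT (log2 fold change -2.80 ± 0.41, adjusted p = 1.55e-05), and its difference between Lard and Ctrl was not called (1.35, adjusted p = 0.224). The 2 members not called were MITF and CHI3L1, of which MITF was named after its value was seen. CHI3L1, a chitinase-like protein, overlapped widely at 222 to 650 CPM on Lard and 130 to 830 CPM on CHT (log2 fold change 0.10 ± 0.38). MITF, a transcription factor of lysosomal and pigment genes, had an adjusted p of 0.0255 but a log2 fold change of only -0.53, below the fold threshold.

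Of the 6 most clearly lower genes with a symbol, 3 belonged to no list. ANO4 (ENSOCUG00000000881), of the anoctamin family of membrane proteins, had 1.07, 2.02 and 3.29 CPM on Lard and 39.8, 87.0 and 193.8 CPM on CHT (log2 fold change -5.75 ± 0.37). NYAP2 (ENSOCUG00000014433), an adaptor of phosphoinositide 3-kinase, had 0.126, 0.883 and 1.86 CPM against 43.4, 90.5 and 169.2 CPM (-6.76 ± 0.44). TRPM1 (ENSOCUG00000004314), a cation channel known from retina and pigment cells, had 0.0628, 0.191 and 0.335 CPM against 9.80, 44.6 and 102 CPM (-8.05 ± 0.57). The largest adjusted p of these 3 was 2.87e-10, and in Ctrl all 3 were below 2 CPM in every library, the highest value being 1.71 CPM for ANO4.

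Lysosomal genes were lower on Lard in 10 of 17 tested, with 0 higher and a median log2 fold change of -1.28. The protease gene CTSS, used in loading MHC class II molecules, had 6.32, 6.97 and 27.4 CPM on Lard against 98.3, 146 and 281 CPM on CHT (-3.99 ± 0.37). GUSB, a glucuronidase, had 14.7, 20.7 and 24.7 CPM against 86.6, 98.8 and 235.2 CPM (-2.77 ± 0.25). The abundant protease gene CTSB had 354, 403 and 572.3 CPM against 1441, 1607 and 3523 CPM (-2.34 ± 0.24). None of the 3 overlapped between the diets, and each was called with plate 1 alone.

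**Figure D3:**
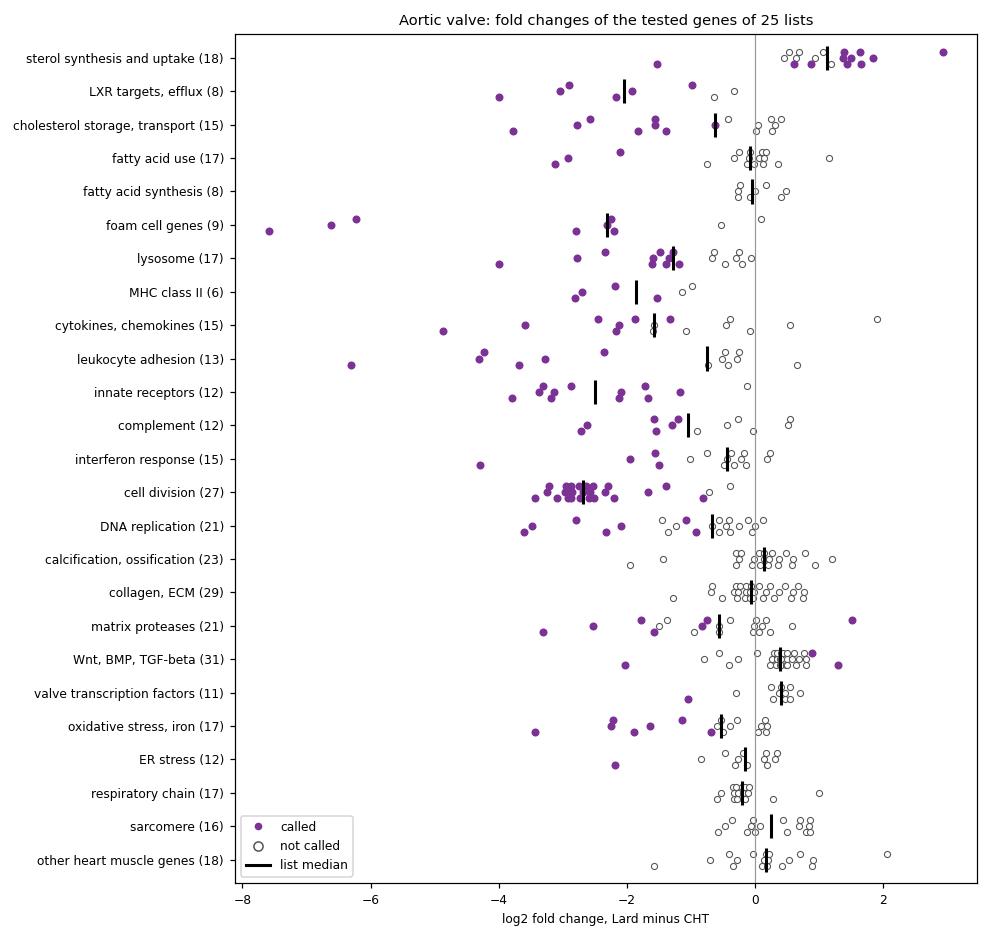
Log2 fold changes (Lard minus CHT) of the tested genes of 25 process lists in the aortic valve, with the number of tested genes in brackets. Each point is 1 gene, filled where called, and the bars are list medians. The sterol synthesis list lay to the right (median 1.13), the efflux, foam cell, innate receptor and cell division lists to the left (medians from -2.04 to -2.68), and the calcification, collagen, respiratory chain and muscle lists held no called gene.

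Macrophage markers were called lower on Lard in 8 of 12 tested, with 0 higher and a median log2 fold change of -1.47, and in 5 of 12 with plate 1 alone. CD68 (ENSOCUG00000010383), a lysosomal glycoprotein of macrophages, had 14.1, 22.6 and 27.5 CPM on Lard and 113, 207 and 313 CPM on CHT (log2 fold change -3.30 ± 0.24, adjusted p = 3.84e-10). CD14, the co-receptor for lipopolysaccharide, had 1.77, 4.98 and 12.9 CPM against 44.3, 79.3 and 105 CPM (-3.79 ± 0.36). AIF1, a calcium-binding protein of macrophages, had 6.78, 8.60 and 21.4 CPM against 60.1, 72.4 and 108 CPM (-2.69 ± 0.26). CD163, the haemoglobin scavenger receptor of resident macrophages, was not called. It had 5.58, 13.3 and 72.4 CPM on Lard, 13.3, 47.3 and 62.2 CPM on CHT and 12.4, 52.3 and 74.4 CPM in Ctrl (Lard minus CHT -0.89 ± 0.51, adjusted p = 0.398). The ranges of CD163 overlapped in all 3 groups.

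Of 12 tested innate receptors and their signalling partners, 11 were lower on Lard and 0 higher (median log2 fold change -2.50), and the member not called, named after its value was seen, was TLR6 (-0.12). The kinase gene SYK, which relays signals of immune receptors, had 3.09, 5.96 and 13.1 CPM on Lard against 35.3, 52.7 and 94.5 CPM on CHT. Its adaptor TYROBP had 3.15, 8.16 and 14.9 CPM against 37.0, 65.5 and 116 CPM. Both, like CD14, lay below CHT in every Lard library.

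In leukocyte adhesion, 6 of 13 tested genes were lower on Lard and 0 higher (median log2 fold change -0.74, or -1.29 with plate 1 alone). The 3 with the smallest p were all chains of the beta 2 integrins, which hold leukocytes to vessel walls and matrix. ITGAL had 0.668, 1.07 and 2.80 CPM on Lard against 42.7, 107 and 203 CPM on CHT (-6.31 ± 0.47, adjusted p = 4.37e-10). ITGAM had 3.96, 6.87 and 15.8 CPM against 91.0, 142 and 240 CPM (-4.31 ± 0.32). The shared chain ITGB2 had 4.73, 9.27 and 16.9 CPM against 60.3, 114 and 226 CPM (-3.69 ± 0.37).

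Antigen presentation by MHC class II was represented by 6 tested genes, of which 4 were lower on Lard and 0 higher (median log2 fold change -1.85). HLA-DRA had 13.1, 14.8 and 60.6 CPM on Lard against 86.8, 177.6 and 215 CPM on CHT (-2.81 ± 0.34). The invariant chain gene CD74 had 68.9, 100 and 293 CPM against 396, 600 and 907 CPM (-2.18 ± 0.29), and HLA-DMA, which helps peptides to bind, had 2.52, 5.24 and 10.995 CPM against 23.7, 34.7 and 56.6 CPM (-2.70 ± 0.26). No Lard library reached the lowest CHT library in these 3 genes.

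Cytokines, chemokines and their receptors were lower on Lard in 7 of 15 tested, with 0 higher (median log2 fold change -1.58). IL1RN, the natural antagonist of the interleukin 1 receptor, had 0.153, 0.838 and 1.72 CPM on Lard against 6.58, 10.6 and 14.3 CPM on CHT (-3.60 ± 0.44). The chemokine receptor gene CCR1 had no count in 4 of the 7 Lard libraries, with a median of 0 and a highest value of 0.376 CPM in L232, against 1.64, 2.02 and 7.57 CPM on CHT (-4.87 ± 0.66). CX3CR1, the fractalkine receptor, had 1.20, 2.10 and 10.7 CPM against 9.13, 13.9 and 16.6 CPM (-1.87 ± 0.41), with an overlap through L232.

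The monocyte chemoattractant CCL2 (1.24, 1.82 and 7.66 CPM on Lard, 4.66, 8.80 and 11.4 CPM on CHT, log2 fold change -1.33 ± 0.38, adjusted p = 0.0243) and TNF (0, 0.158 and 0.771 CPM against 0.733, 1.03 and 1.78 CPM, -2.45 ± 0.73, adjusted p = 0.0315) were called with overlapping ranges. Neither was called with plate 1 alone (adjusted p = 0.221 and 0.0838), and leaving out 1 library at a time ended the call of CCL2 in 8 and of TNF in 7 of the 13 fits. IL1B stayed below 1 CPM in every library of both diets and was not called (adjusted p = 0.22). Of the 7 calls in this list, 2 were made with plate 1 alone, and 4 without CHT library L228.

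Complement genes were lower on Lard in 6 of 12 tested, with 0 higher (median log2 fold change -1.05). The anaphylatoxin receptor C5AR1 had 1.48, 2.98 and 5.10 CPM on Lard against 10.1, 16.9 and 29.1 CPM on CHT (-2.61 ± 0.32), and C3AR1 had 0.561, 0.716 and 3.96 CPM against 7.60, 9.62 and 16.5 CPM (-2.71 ± 0.45). Properdin, encoded by CFP, overlapped at up to 2.69 CPM on Lard and from 2.23 CPM on CHT (-1.57 ± 0.33) and was not called with plate 1 alone. Interferon-responsive genes were lower in 4 of 15, with 0 higher (median log2 fold change -0.44, or -0.84 with plate 1 alone). OASL fell from 1.90, 5.45 and 11.3 CPM on CHT to 0, 0.391 and 0.628 CPM on Lard (-4.29 ± 0.54). IFIT3 (4.19, 7.30 and 10.5 CPM against 9.17, 18.8 and 42.0 CPM) and IRF8 (3.10, 4.32 and 11.2 CPM against 5.34, 19.1 and 52.7 CPM) overlapped, and neither was called with plate 1 alone (adjusted p = 0.271 and 0.0554). With plate 1 alone, 2 complement and 2 interferon genes were called.

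The genes of mitosis moved together. Of 27 tested, 25 were lower on Lard and 0 higher, with a median log2 fold change of -2.68, and in 23 the ranges did not overlap. Over all genes, 7.16% were lower and 4.57% had the Lard range below the CHT range. KIF23, a motor of the central spindle, had 1.08, 1.397 and 3.64 CPM on Lard, 8.09, 11.2 and 16.6 CPM on CHT and 0.707, 1.48 and 1.90 CPM in Ctrl (Lard minus CHT -2.74 ± 0.27, adjusted p = 4.19e-08). KIF14 had 0.620, 0.942 and 2.49 CPM against 5.71, 9.33 and 12.0 CPM, and the checkpoint kinase gene BUB1 0.191, 0.617 and 0.989 CPM against 1.77, 3.93 and 4.83 CPM. The members not called, named after their values were seen, were the condensin genes SMC2 (-0.71) and SMC4 (-0.39). With plate 1 alone, 19 of the 27 were called.

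DNA replication genes were lower in 7 of 21, with 0 higher (median log2 fold change -0.67). RRM2, which makes deoxynucleotides, had 0.188, 0.955 and 2.73 CPM on Lard against 7.66, 12.1 and 16.8 CPM on CHT (-3.60 ± 0.43). The helicase gene MCM4 had 2.20, 3.52 and 6.09 CPM against 9.78, 16.4 and 20.2 CPM (-2.09 ± 0.26), and the polymerase gene POLE 1.28, 1.99 and 3.91 CPM against 7.96, 9.67 and 20.6 CPM (-2.32 ± 0.29). All 3 were called with plate 1 alone.

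Genes of calcification and bone formation gave 0 calls of 23 tested by edgeR, with a median log2 fold change of 0.15, 6 genes at an unadjusted p under 0.05 and 1 called by DESeq2. SPP1, also a gene of mineralizing tissue and called lower on Lard, was counted in the foam cell list and not here. RUNX2, the master regulator of osteoblasts, was scarce at 0.223, 0.408 and 1.01 CPM on Lard and 0.390, 1.24 and 2.84 CPM on CHT (-1.44 ± 0.54, adjusted p = 0.116). ALPL, the alkaline phosphatase of mineralization, had 0.925, 2.32 and 6.98 CPM against 1.25, 3.03 and 8.77 CPM (-0.24 ± 0.57). BGLAP, which encodes osteocalcin, had 5.78, 41.4 and 72.1 CPM on Lard and 7.37, 11.03 and 38.4 CPM on CHT (1.21 ± 0.50, adjusted p = 0.162), with 1 Lard library below every CHT library. IBSP never exceeded 1.16 CPM in the Lard and CHT aortic valves, and the osteoblast factor SP7 was not tested because its highest count was 2 on Lard and 4 on CHT.

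MGP (ENSOCUG00000016964), matrix Gla protein, a vitamin K-dependent inhibitor of calcification, was the most abundant gene of that list among those named. It had 1867, 3327 and 4474 CPM on Lard, 1110.3, 1728 and 2590.0 CPM on CHT and 704, 2049 and 2909 CPM in Ctrl. The log2 fold change was 0.94 ± 0.33 (adjusted p = 0.0841), and the gene was called with DESeq2 (adjusted p = 0.0295) and with only the Lard and CHT libraries in the model (adjusted p = 0.0152), but not with plate 1 alone (adjusted p = 0.353). BMP2, named after its value was seen, was the single gene of the list called with plate 1 alone (1.29 ± 0.34, adjusted p = 0.0449). With all libraries it had 4.58, 6.53 and 11.1 CPM on Lard and 1.95, 4.40 and 6.03 CPM on CHT (0.79 ± 0.31, adjusted p = 0.138).

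Structural matrix genes gave 0 calls of 29 tested by edgeR and by DESeq2, with 4 at an unadjusted p under 0.05 and a median log2 fold change of -0.06. COL1A1 spread over a wide range within each diet, from 870 to 6826 CPM on Lard and from 551.007 to 6949 CPM on CHT (-0.16 ± 0.62), so that a difference of this size was not detectable at that spread. TNC, encoding tenascin C, had 123, 198.4 and 289 CPM against 191.99, 334 and 356 CPM (-0.51 ± 0.26, adjusted p = 0.321). Matrix proteases and their inhibitors were lower on Lard in 6 of 21 tested and higher in 1, and 2 of the 21 were called with plate 1 alone. PLAU, the urokinase, had 8.21, 15.5 and 17.6 CPM on Lard against 51.2, 64.4 and 134 CPM on CHT (-2.53 ± 0.26). ADAM17, the sheddase of TNF, had 45.7, 61.1 and 84.1 CPM against 76.97, 112 and 135 CPM (-0.83 ± 0.15). ADAM17 overlapped between the diets and was not called with plate 1 alone (adjusted p = 0.0955), whereas PLAU did not overlap. The 1 higher gene, named after its value was seen, was TIMP4, an inhibitor of metalloproteinases, at 42.6, 61.1 and 72.9 CPM on Lard and 10.0, 20.8 and 36.05 CPM on CHT (1.52 ± 0.40, adjusted p = 0.0127). TIMP4 did not overlap, and its adjusted p with plate 1 alone was 0.0709.

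Of 31 genes of Wnt, BMP and TGF-beta signalling, 2 were higher and 1 lower on Lard (9.68% of the list, against 7.94% of all genes), with a median log2 fold change of 0.40, or 0.25 with plate 1 alone. DKK2, a secreted modulator of Wnt receptors, had 34.0, 55.8 and 102 CPM on Lard and 13.1, 26.4 and 50.4 CPM on CHT (1.29 ± 0.34, adjusted p = 0.0116). WNT5A, a ligand of the non-canonical branch, had 7.60, 11.2 and 12.6 CPM against 2.67, 5.37 and 8.09 CPM (0.89 ± 0.25, adjusted p = 0.0183). SFRP2, a secreted Wnt-binding protein, had 4.18, 8.58 and 20.3 CPM against 6.60, 42.0 and 79.9 CPM (-2.03 ± 0.43, adjusted p = 0.00165). Ranges overlapped in all 3, and with plate 1 alone 0 genes of the list were called. The call of WNT5A also ended without CHT library L169 (adjusted p = 0.0683), L186 (0.0562) or L265 (0.0563). The Wnt antagonist DKK1 was low, at 0.502, 0.771 and 4.41 CPM and 0.291, 0.761 and 2.93 CPM, and was not called (0.26 ± 0.62).

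Among 11 transcription factors of valve development, 1 was called, a share of 9.09% that is near the 7.94% of all genes. MEF2C had 21.4, 27.5 and 41.1 CPM on Lard and 49.98, 64.0 and 71.1 CPM on CHT (-1.04 ± 0.17, adjusted p = 9.34e-05) without overlap, and it was also called with plate 1 alone. TBX20 (252, 307 and 407 CPM against 142, 209 and 292 CPM, 0.54 ± 0.23, adjusted p = 0.169) and SOX9 (107, 118 and 245.2 CPM against 69.5, 99.5 and 234.2 CPM, 0.37 ± 0.33) were not, and SOX9 had the opposite sign with plate 1 alone (-0.065).

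Genes of fatty acid use were called in 3 of 17 tested (17.6%, against 7.94% of all genes), all lower on Lard. The median log2 fold change was -0.08. LPL, the lipoprotein lipase, had 2.60, 7.83 and 17.9 CPM on Lard, 43.9, 76.3 and 88.4 CPM on CHT and 6.79, 24.2 and 81.8 CPM in Ctrl (Lard minus CHT -3.12 ± 0.60, adjusted p = 0.000565). The mitochondrial carrier UCP2 had 6.11, 9.25 and 14.4 CPM against 36.2, 76.9 and 102 CPM (-2.92 ± 0.26). UCP3 had 0.153, 0.816 and 1.26 CPM against 1.25, 2.89 and 6.60 CPM, so that the ranges just met, and was not called with plate 1 alone (adjusted p = 0.0963). PDK4, a fasting-responsive kinase that spares glucose, overlapped at 107 to 191.7 CPM and 46.1 to 292 CPM (0.15 ± 0.45). Fatty acid synthesis gave 0 calls of 8 by edgeR and by DESeq2, with 0 at an unadjusted p under 0.05.

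Oxidative stress and iron genes were lower on Lard in 7 of 17 tested, with 0 higher (median log2 fold change -0.52). With plate 1 alone, 3 were called and the median was -0.23. HMOX1, which breaks down haem, had 3.05, 4.64 and 10.6 CPM on Lard against 14.1, 28.8 and 34.1 CPM on CHT (-2.21 ± 0.27). CYBB, the catalytic subunit of the phagocyte oxidase (2.35, 3.87 and 20.3 CPM against 25.7, 32.6 and 54.2 CPM, -2.24 ± 0.40) was also lower, without a call on plate 1 alone (adjusted p = 0.0716). In the endoplasmic reticulum stress list, 1 of 12 was called (8.33%, against 7.94% of all genes). ATF3, a stress-induced transcription factor, had 19.0, 29.4 and 30.3 CPM against 73.4, 94.3 and 240.8 CPM (-2.19 ± 0.33). The respiratory chain gave 0 calls of 17 by edgeR and by DESeq2, with 1 at an unadjusted p under 0.05.

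**Figure D4:**
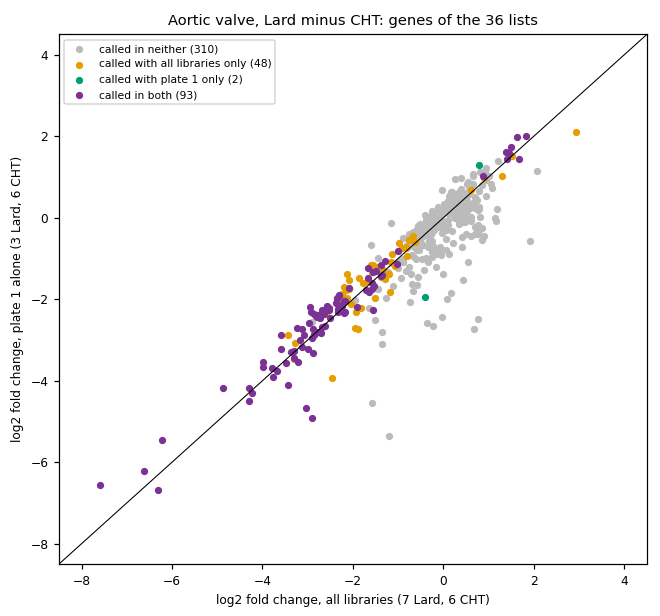
Log2 fold changes (Lard minus CHT) of 453 genes of the 36 lists, with all 7 Lard and 6 CHT libraries (horizontal axis) and with the 3 Lard and 6 CHT libraries of plate 1 (vertical axis). The diagonal marks equal values. Of these genes, 93 were called in both, 48 with all libraries only and 2 with plate 1 only, and no gene called with all libraries changed sign.

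The 10 endothelial markers gave 0 calls by edgeR and by DESeq2 (1 at an unadjusted p under 0.05). All 10 had a log2 fold change below 0, with a median of -0.60, or -0.99 with plate 1 alone, and their summed level ranged from 83.7 to 866 CPM on Lard and from 263.02 to 817 CPM on CHT. The 2 lowest values, 83.7 and 104 CPM, were Lard libraries of plate 1. The 9 interstitial markers (1 at an unadjusted p under 0.05), 7 smooth muscle markers (1) and 7 cardiomyocyte markers (0) likewise gave 0 calls by both tools. The medians of the smooth muscle and cardiomyocyte markers turned from 0.33 to -0.30 and from 0.44 to -1.08 with plate 1 alone. ACTA2, smooth muscle actin, had 175.2, 231.6 and 362 CPM on Lard and 299, 377 and 509 CPM on CHT and lay just beyond the threshold (-0.64 ± 0.21, adjusted p = 0.0521). MYH11, smooth muscle myosin, had 58.6, 91.0 and 1293 CPM on Lard against 114, 412 and 555.3 CPM on CHT. The 6 other Lard libraries were at or below 111 CPM and L543 alone was at 1293 CPM. MYH11 was not called with all libraries (-0.41 ± 0.61, adjusted p = 0.822) and was lower on Lard with plate 1 alone (-1.94, adjusted p = 0.0277). Plate 1 alone leaves out the 4 Lard libraries of plate 2, L543 among them.

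The sarcomere list (16 tested) and the list of other heart muscle genes (18) gave 0 calls by edgeR and by DESeq2, with 2 and 0 at an unadjusted p under 0.05. Their medians were 0.26 and 0.18 between the diets and turned to -0.41 and -0.30 with plate 1 alone, so that no direction held. Against Ctrl, the sarcomere medians were -3.84 for Lard and -4.22 for CHT, but the Ctrl libraries were uneven. The summed sarcomere level was 15103 CPM in Ctrl L240, 5638 CPM in L277, 2066 CPM in L166 and 1382 CPM in L182. All of these lay above both diets. Ctrl L198, L261 and L150, at 644 to 719 CPM, lay within the ranges of Lard (458 to 750 CPM) and CHT (558 to 916 CPM). MB, myoglobin, was at 0.252, 1.17 and 4.14 CPM on Lard, 0.111, 0.875 and 3.03 CPM on CHT and 3.54, 12.0 and 205 CPM in Ctrl. In the T and NK cell list, 1 of 4 tested was called (CD5, 0.0514, 0.198 and 0.559 CPM against 0.367, 1.84 and 3.598 CPM), in the B and plasma cell list 1 of 3 (JCHAIN, 0.5677, 0.925 and 2.45 CPM against 1.61, 3.05 and 13.2 CPM) and in the adipocyte list 1 of 4 (PPARG, 0.377, 1.002 and 1.44 CPM against 2.72, 5.25 and 7.62 CPM), all lower on Lard. The medians of the T and NK and of the B and plasma cell lists were -0.96 and -1.92 (-2.31 for both with plate 1 alone). Without CHT library L151, the T and NK median turned to 0.31. Over all genes 7.94% were called, and lists of 3 or 4 tested genes are too small to set against that share. PPARG is also expressed by macrophages. JCHAIN lost its call without CHT library L151 (adjusted p = 0.0721) and with plate 1 alone (adjusted p = 0.0849). The neutrophil (5 tested), red cell (3) and nerve (4) lists gave 0 calls by both tools, with 1, 0 and 0 at an unadjusted p under 0.05. The red cell median turned from 0.67 to -2.66 with plate 1 alone.

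Whether the diets differed in the aortic valve in another way than in neighbouring tissue was tested by interaction, with both tissues in 1 model and a call at an adjusted p under 0.05. Against the mitral valve, the other left-sided valve, 0 of 16166 genes (0%) were called by edgeR, with 329 at an unadjusted p under 0.05. The smallest adjusted p belonged to KLB, the co-receptor of some fibroblast growth factors, named after its value was seen, at 0.0546. This model took the 2 valves of a rabbit as independent, although their deviations from group means were correlated (median r = 0.46 over 26 pairs). Leaving out such a pairing widens the errors of a difference between tissues. With the rabbit as a block, 857 genes had an unadjusted p under 0.05 and 2 were called, RRM2 and TIAM1. DESeq2 called KLB only. In the same joint model 847 genes (5.24%) were called for Lard against CHT in the mitral valve, and 1506 (9.32%) in the aortic valve. ABCA1 had log2 fold changes of -4.03 in the aortic and -3.65 in the mitral valve, with an interaction of -0.38 ± 0.35, and SQLE of 1.79 and 2.07 (interaction -0.28 ± 0.32), so that no difference was detected at these errors.

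For the aorta, CPM values are those of the joint scaling of both tissues and so differ slightly from the values given above for the aortic valve alone. Against the aorta, 52 of 16125 genes (0.322%) were called, in 34 of which (0.211%) the aortic valve had the lower and in 18 (0.112%) the higher value of Lard minus CHT. In this model 1268 genes (7.86%) separated Lard from CHT within aorta, and 1371 (8.5%) within aortic valve. Plate 2 held every library of the aorta, and 16 genes were called when only the plate 1 libraries of the valve were used, 14 of them among the 52. ANO4 was the clearest: it had 1.004, 1.88 and 3.09 CPM on Lard and 38.4, 83.2 and 176.3 CPM on CHT in the aortic valve, but 30.8, 57.7 and 69.5 CPM and 121, 125 and 142 CPM in the aorta (interaction -4.50 ± 0.36, adjusted p = 7.26e-13). DGKI (ENSOCUG00000010264), a diacylglycerol kinase, had 9.67, 15.1 and 19.97 CPM against 37.0, 64.2 and 111 CPM in the aortic valve and overlapped in the aorta at 34.2 to 70.4 and 42.5 to 72.2 CPM (interaction -1.96 ± 0.26). BICD1 (ENSOCUG00000017857), a dynein adaptor, had 3.01, 3.82 and 10.4 CPM against 23.6, 32.8 and 68.1 CPM in the aortic valve, and 52.2 to 105 and 65.0 to 134 CPM in the aorta (interaction -2.54 ± 0.35). In all 3 genes, the median of the aortic valve was nearer to the aorta on CHT than on Lard.

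Of the genes named above, MMP12, MEF2C and KLB were also among the 34. MMP12 had a log2 fold change of -7.54 in the aortic valve and -2.68 in the aorta (interaction -4.86 ± 1.08, adjusted p = 0.0234), where its 7 Lard libraries spread from 0.116 to 166.9 CPM. MEF2C had -1.03 and 0.05 (interaction -1.08 ± 0.22, adjusted p = 0.00859). KLB had -7.52 and -1.66 (interaction -5.86 ± 1.34, adjusted p = 0.0272).

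In the other direction, CXCR4 (ENSOCUG00000001923), the receptor of the chemokine CXCL12, overlapped in the aortic valve at 20.5 to 35.2 CPM on Lard and 20.4 to 46.0 CPM on CHT, whereas in the aorta it had 0.179, 0.800 and 1.89 CPM on Lard and 7.08, 11.1 and 21.2 CPM on CHT (interaction 3.31 ± 0.54, adjusted p = 0.000272). FBN2 (ENSOCUG00000008226), the microfibril protein fibrillin 2, had 103 to 234.1 and 80.7 to 182.5 CPM in the aortic valve, and 2.37, 5.23 and 6.80 CPM against 9.08, 20.8 and 26.8 CPM in the aorta (interaction 2.52 ± 0.42). ANGPT1 (ENSOCUG00000003722), the angiopoietin that binds the endothelial receptor TEK, was the 1 of these 3 that was itself higher on Lard in the aortic valve, at 57.9, 100 and 121 CPM against 18.03, 32.0 and 45.6 CPM, while in the aorta it had 33.1 to 60.5 and 47.6 to 64.0 CPM (interaction 1.92 ± 0.37, adjusted p = 0.00406). All 6 genes kept their call under each alternative run for this test. SQLE and ABCA1 did not differ detectably between the aortic valve and the aorta, with interactions of 0.28 ± 0.35 for SQLE and -0.40 ± 0.31 for ABCA1.

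**Figure D5:**
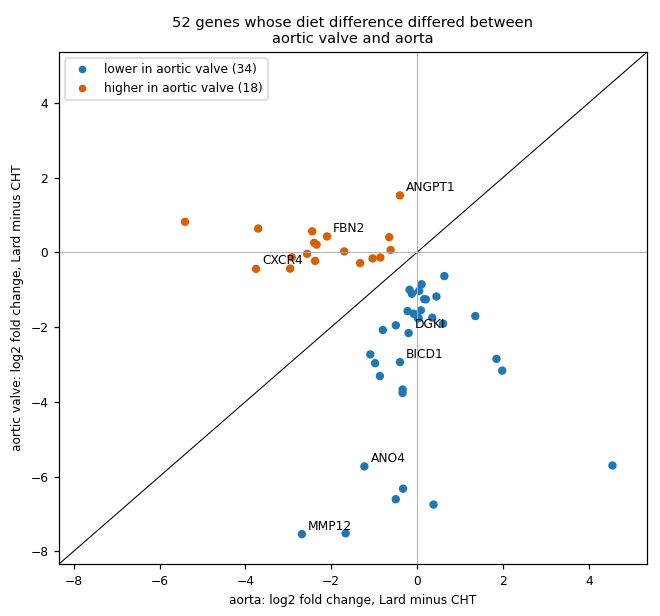
The 52 genes whose difference between the diets was not the same in the aortic valve (vertical axis) and the aorta (horizontal axis), as log2 fold change of Lard minus CHT. The diagonal marks equal values, and colours separate the 34 genes with the lower value in the aortic valve from the 18 with the higher one. Most of the 18 lie near 0 in the aortic valve and below 0 in the aorta.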

How the data were processed

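RNA from snap-frozen dissected tissue was made into stranded total RNA libraries and sequenced by the authors, who used bcl2fastq 2.20 and the nf-core RNA-seq pipeline with genome build OryCun2.0. The authors deposited raw counts per gene (29587 genes, 14716 with a symbol), and all 134 columns were matched to a sample by name. Counts were analysed here with edgeR 4.0.16 in R 4.3.3: filterByExpr, TMM scaling and a robust quasi-likelihood fit of the 27 aortic valve libraries in 4 groups, with Benjamini-Hochberg adjustment over all genes tested. Levels are counts-per-million (CPM), scaled to the TMM-adjusted library sizes. Calls needed an adjusted p under 0.05 and a fold change over 1.5, and interactions the former only. Alternatives were DESeq2 1.42.0 and its size factors, no filter, glmTreat, plate as a covariate, plate 1 alone, only Lard and CHT libraries, the rabbit as a block and leaving out each library. Replicates are separate rabbits. Named genes were the 6 most significant called genes with a symbol in each direction, the 3 most significant called genes of each list, the 3 in each direction of each interaction and genes fixed by name. The members and lists were chosen with earlier results of these data known. On simulated counts of 15148 genes, 46% of genes changed by 1 and 84% of those changed by 2 on the log2 scale were called, with 3 unchanged genes called. Depth was 14926657 to 50577676 counts per Lard or CHT library. Rabbits are the pairing of tissues: deviations of the aortic and mitral valve of the same rabbit correlated over 0.1 in 26 of 26 pairs, and of aortic valve and aorta in 21 of 27. The main interaction fits did not use this pairing. No coordinates or sequences are given, because no reference of that build was used here. Results of some genes are not reported here, although they entered the fits and the counts over lists.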

Additional observations from a re-analysis of the deposited data

Results flagged for a closer look

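Of 164 sets of libraries (the named genes reported here, in each diet separately), 5 held a library separated from the rest by a gap that was large against the group's range on the log2 CPM scale, fewer than the 5% that chance gives. In CHT, library L151 was the highest for JCHAIN (gap of 0.682 of the range, 13.2 against 3.05 CPM), and L244 was the lowest for BUB1 (0.631, 1.77 against 3.93 CPM). In Lard, L269 was the highest for NR1H3 (0.724, 11.8 against 5.28 CPM), L232 for DKK1 (0.696, 4.41 against 0.771 CPM) and L543 for the smooth muscle gene MYH11 (0.794, 1293 against 91.0 CPM).

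In 8 named genes the difference between the diets was not the same in the aortic valve and the aorta by the interaction test. KLB, named after its value was seen, is not counted among them. The aortic valve had the lower log2 value of Lard minus CHT for ANO4 (by -4.50), DGKI (-1.96), BICD1 (-2.54), MEF2C (-1.08) and MMP12 (-4.86), and the higher one for CXCR4 (3.31), FBN2 (2.52) and ANGPT1 (1.92). All aorta libraries were on plate 2 and the CHT libraries of the aortic valve on plate 1.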

How the results depend on the processing

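The 1224 calls became 609 with plate 1 alone and 743 with glmTreat. As a share of the 15408 genes, lower genes went from 7.16% to 3.67% and 4.73% under these, and higher genes from 0.785% to 0.279% and 0.0909%. Higher genes came to 1.71% with DESeq2, 0.519% with no filter and 0.344% with plate as a covariate. Leaving out 1 library gave 1025 to 1320 calls (without CHT L265 and without Lard L232), 6.24% to 7.54% lower and 0.396% to 1.04% higher genes (without CHT L169 and without CHT L151). CHT against Ctrl gave 1125 genes with the plate covariate and 826 with plate 1 alone, where Lard against Ctrl gave 0. The aorta interaction gave 26 genes with the plate covariate, 34 with no filter, 97 with DESeq2 and 16 with each tissue taken from 1 plate, a setting added once the data had been seen. The causes were not tested.

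Of 69 named genes called, 54 kept their call under every alternative other than leaving out a library, 65 kept it in every fit without 1 library, and 0 reversed. With plate 1 alone 14 lost it (among them UCP3, CX3CR1, CFP, IFIT3, IRF8, ADAM17, SFRP2, DKK2, WNT5A, CYBB, JCHAIN, TNF and CCL2). Signs reversed in genes that were not called: MB (-0.89 with the plate covariate, -1.08 with plate 1 alone), SOX9 (-0.065 with plate 1 alone), and, over the fits without 1 library, COL1A1 (-0.50 to 0.17), PDK4 (-0.0068 to 0.58), CHI3L1 (-0.085 to 0.53), ALPL (-0.60 to 0.29) and DKK1 (-0.53 to 0.88). List medians turned sign with plate 1 alone for the sarcomere (-0.41), other heart muscle (-0.30), cardiomyocyte (-1.08), smooth muscle (-0.30), red cell (-2.66), collagen (0.05), fatty acid synthesis (0.01), valve transcription factor (-0.01) and adipocyte lists (0.07). With the plate covariate they did so for the sarcomere (-0.61), other heart muscle (-0.22), cardiomyocyte (-0.89), red cell (-0.77) and adipocyte lists (0.05), with only the Lard and CHT libraries for neutrophil markers (-0.36), with DESeq2 or its size factors for fatty acid synthesis (0.01), without Lard L190 for red cell markers (-2.26) and collagen (0.02), without Lard L543 for the sarcomere (-0.17) and cardiomyocyte lists (-0.09), without Lard L190 or CHT L228 for fatty acid synthesis (0.01 and 0.10), and, without 1 library, T and NK markers (-1.44 to 0.31) and fatty acid use (-0.13 to 0.05).

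No paired analysis was possible because the Lard and CHT valves came from different rabbits. For the interactions, the replicate block by rabbit gave 2 genes against the mitral valve (DESeq2 gave 1) and 42 against the aorta, 36 of them among the 52.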
